A study of Mus musculus with 9 samples.

Results

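The miRNAs described here are the mouse miRNAs with a number of 1000 or more, from miR-1186 to miR-1907. They were taken by name alone, with any arm or version suffix and without star names, which left 32 of the 650 miRNAs on the array and of its 611 mouse miRNAs. The profiles come from hippocampal neurons of C57BL/6 mice, prepared at postnatal day 1 and kept for 10 days in vitro. 3 one-colour Agilent arrays each measured total RNA from untreated control neurons, from neurons given 20 µM NMDA and from neurons given 50 µM bicuculline, with RNA at 4 h. The labels give both drugs for the whole of that time, whereas the methods describe a short exposure to NMDA that was ended by washing. For the miRNA profiles a legend in the study gives 20 µM NMDA, as the labels do. The study's results text names a higher concentration, with glycine as co-agonist, so the dose is uncertain. Replicates were separate cell preparations. The comparison with NMDA asks which miRNAs change when receptors over the whole neuron are activated, and the comparison with bicuculline asks the same for synaptic activity.

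A miRNA is a short RNA, cut from a hairpin precursor, that guides Argonaute proteins to messenger RNAs. Pairing rests mostly on the seed, a stretch near its 5′ end, and the usual outcome is less protein from the target. Numbers are given in the order of registration, so that a high number marks a late discovery. Many late entries came from deep sequencing, are found in few species and have genes inside the introns of longer genes. NMDA is an agonist of the NMDA class of glutamate receptors, and lasting activation of these receptors over the whole cell is toxic to neurons. GABA-A receptors carry fast inhibition in the brain, and cultures given bicuculline, which blocks them, become more active at their synapses.

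The mature sequences that matter for the values below are those of the members whose signals differed most between NMDA and control arrays, and of miR-1224, the member with a high signal in every group. They were read from RefSeq on GRCm38.p6, and capitals mark the seed, bases 2 to 8.
miR-1187 (chr5:82798964-82798986, minus strand): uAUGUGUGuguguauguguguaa
miR-1892 (chr12:54645943-54645964, minus strand): aUUUGGGGacgggagggaggau
miR-1894-3p (chr17:35917938-35917959, plus strand): gCAAGGGAgagggugaagggag
miR-1895 (chr3:134240515-134240536, minus strand): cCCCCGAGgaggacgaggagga
miR-1904 (chr13:109903819-109903840, plus strand): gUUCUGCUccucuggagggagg
miR-1896 (chr13:21445209-21445230, plus strand): cUCUCUGAuggugggugaggag
miR-1906 (chr12:109544588-109544609, plus strand): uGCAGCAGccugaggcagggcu
miR-1224-5p (chr16:20604452-20604472, plus strand): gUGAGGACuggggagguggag
miR-1224-3p (chr16:20604516-20604536, plus strand): cCCCACCUcuucucuccucag
The sequence of miR-1906 is also encoded at chrX:88759485-88759506 on the minus strand. The array name of miR-1224 gives no arm, so both arms of its hairpin are shown. Of the 32 members, 19 matched 1 mature sequence and 6 matched a hairpin with both arms. The 7 that matched none are miR-1186, miR-1194, miR-1196, miR-1893, miR-1897-5p, miR-1901 and miR-1907.

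The members do not form a seed family. Their 31 matched sequences had 31 distinct seeds. Only 5 of them shared a seed with a miRNA outside the set, among them miR-1192, which has the seed AACAAAC of miR-495-3p, and miR-1193-5p, which has the seed GGUAGAC of miR-379-5p. miR-1197-5p shared GGUUGAC with miR-758-5p, miR-1193-3p shared AGGUCAC with miR-370-5p and miR-1903 shared CUUCUUC with miR-12183-5p. None of these was among the 8 members with 1 matched sequence whose NMDA signals lay above every control signal.

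For 29 members RefSeq held a gene, 28 genes in all, and for 3 members it held none. Of these genes 22 overlapped another gene and 19 overlapped a protein-coding gene. The table gives no strand for these overlaps. Mir1904 lies in Pde4d, a cAMP phosphodiesterase gene. Mir1895 lies in Cxxc4, which encodes a regulator of Wnt signalling, and Mir1894 lies in Ppp1r10, which encodes a regulatory subunit of protein phosphatase 1. Mir1892 overlaps Sptssa, a subunit of serine palmitoyltransferase, and Mir1224 overlaps Vwa5b2. Mir1897 lies in Sox2ot, a long non-coding RNA gene around Sox2, and 1 of the 2 Mir1906 genes lies in Meg3, a maternally expressed long non-coding RNA. Mir1187 overlapped no other gene. Only 4 genes had another miRNA gene within 10000 bases. Among them are Mir1188, Mir1193 and Mir1197 in the imprinted Dlk1-Dio3 region, where miRNA genes are densely clustered. On the arrays miR-1188, miR-1193 and miR-1197 stayed between -1.31% and 2.31% of the array scale and were well above background on 0 arrays.

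Signals are given as a percent of an array scale, which is the array's 75th percentile over 265 probes, those that passed the background mark on each of the 9 arrays. A probe counts as well above background on an array where at least 50% of its spots carry that mark from the scanner software. Every member had 2 probes with 10 spots each and was read from the brighter one, and levels of different miRNAs are not compared because probes differ in brightness. The arrays lay on 2 slides with all groups on both: control 1 and 2, NMDA 1 and 2 and bicuculline 1 on slide 1, the rest on slide 2. Between 162 and 221 of the 650 miRNAs were well above background on an array, no spot was saturated, and the negative control probes averaged between -0.352% and 0.953% of the scale. All 6 neuronal marker miRNAs, such as miR-124 and miR-9, were well above background on every array. Their summed signal was 3587% to 3642% in control neurons, 3333% to 3591% after NMDA and 3281% to 3564% after bicuculline. All 4 markers of microglia and blood cells were well above background on none, with a summed signal of 2.46% to 4.57% in control neurons, 3.06% to 5.43% after NMDA and 2.62% to 4.01% after bicuculline. Of the oligodendrocyte markers miR-338-3p was measured on all arrays and miR-219 on none. The sum of this pair was 31.5% to 42.2% in control neurons, 30.5% to 41.8% after NMDA and 30.5% to 35.0% after bicuculline. Of the muscle markers miR-1 was measured on all arrays, and miR-133a and miR-206 on none. Together they summed to 14.68% to 17.55% in control neurons, 15.51% to 18.23% after NMDA and 14.34% to 16.14% after bicuculline.

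Most members were dim in these neurons. In control neurons 2 of 32 (6.25%) were well above background on all 3 arrays, against 157 of 579 other mouse miRNAs (27.1%). After bicuculline it was again 2 of 32, against 158 of 579 (27.3%). After NMDA it was 6 of 32 (18.8%), against 173 of 579 (29.9%). Per array, 2, 2 and 6 members passed in control neurons, 6, 8 and 10 after NMDA and 2, 5 and 3 after bicuculline, so that control 3 and NMDA 1 had the same number. Over all 650 miRNAs it was 162, 169 and 205 in control neurons, 181, 206 and 221 after NMDA and 169, 206 and 166 after bicuculline. The lowest signal well above background also differed by array, with 4.80% on control 3 and 8.40% on NMDA 1. miR-1224 and miR-1895 were measured on all 9 arrays. miR-1187, miR-1892, miR-1897-5p and miR-1904 were measured on all NMDA arrays on 1 control array each, and on 0 to 2 bicuculline arrays. miR-1894-3p and miR-1906 were measured on 2 NMDA arrays, and miR-1196 and miR-1896 on 1, with no array of another group. The other 22 members were well above background on 0 arrays, with signals from -3.13% to 4.17% and a median of -0.429%.

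**Figure D1:**
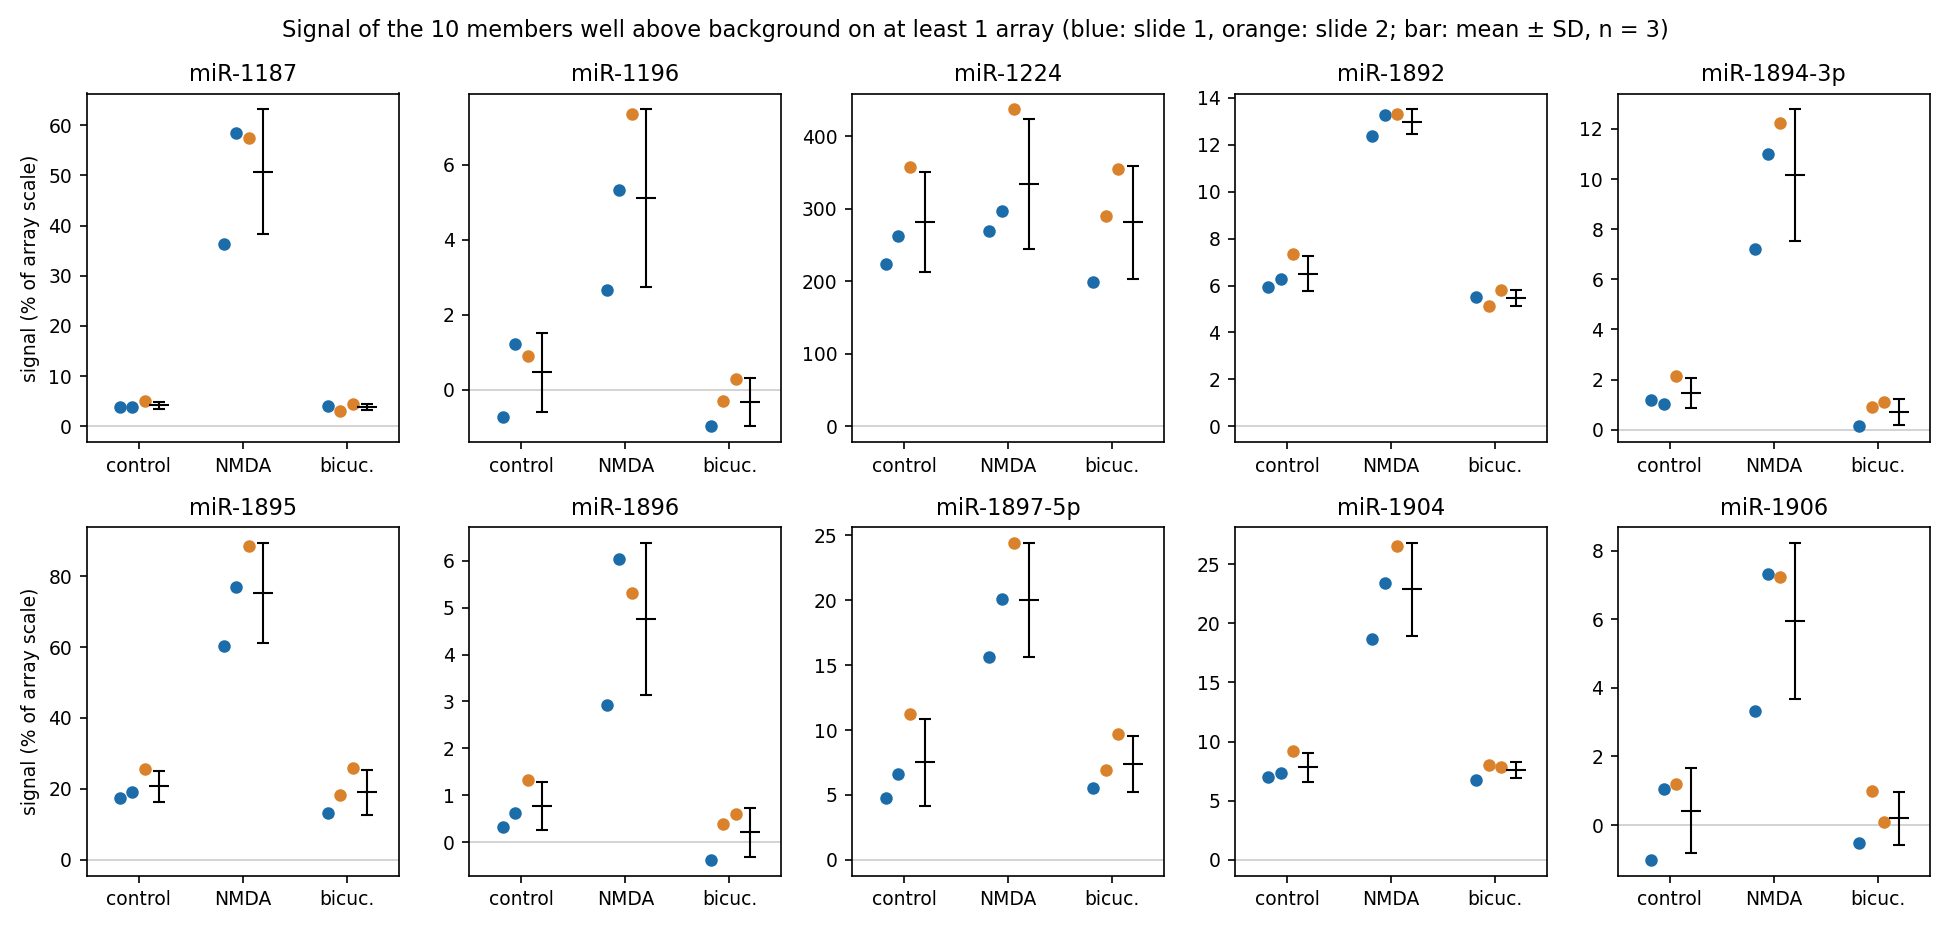
Signal in percent of the array scale for the 10 members well above background on at least 1 array, with control, NMDA and bicuculline arrays from left to right in each panel. Points are single arrays, in order of replicate number and coloured by slide, and bars are the mean ± SD of 3 arrays. In 9 panels all NMDA points lie above all others, and for miR-1224 the groups overlap.

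miR-1187 had the largest log2 change of the members tested. In control neurons its signal was 3.87%, 3.79% and 5.02% of the array scale, after NMDA it was 36.3%, 58.4% and 57.4%, and after bicuculline it was 4.10%, 3.09% and 4.35%, for replicates 1 to 3. The NMDA arrays stood far above the others, and control and bicuculline arrays overlapped. The means were 50.7% ± 12.5 after NMDA, 4.22% ± 0.69 in control neurons and 3.85% ± 0.67 after bicuculline (SD, n = 3). For tests, a signal below 7.94% of the scale was replaced by that floor and then put on the log2 scale, and all control signals of miR-1187 were under it. miR-1187 entered the test only because all NMDA arrays measured it, so its p-value is no support of the direction. NMDA raised it over control by 2.64 on the log2 scale (limma adjusted p = 8.49e-05, standard error 0.18), a value which the floor sets on the control side and for which control arrays add no spread. With a floor at 0.5 of this one the change was 3.53, with normexp background correction it was 1.86, and in the deposited log2 table it was 1.14. No bicuculline array measured miR-1187, and against the lowest signal well above background there the NMDA level was at least 7.47-fold higher.

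miR-1895 is the one raised member that was measured on both sides of every comparison. Its signal was 17.3%, 19.3% and 25.5% in control neurons, 60.3%, 77.0% and 88.4% after NMDA, and 13.2%, 18.2% and 25.8% after bicuculline. The lowest NMDA array was above the highest of the other groups, and control and bicuculline covered nearly the same range. The means were 20.7% ± 4.28 in control neurons, 75.2% ± 14.1 after NMDA and 19.1% ± 6.39 after bicuculline (SD, n = 3). For NMDA against control this gave a log2 change of 1.86 (standard error 0.18, 95% confidence interval 1.43 to 2.30, limma adjusted p = 0.00031). None of its signals was at the floor. The deposited log2 table gave 0.91, and the call was lost with the total gene signal (limma adjusted p = 0.139) and without the filter (limma adjusted p = 0.0771), over a range from 7.79e-10 to 0.139 under all alternatives. For bicuculline against control the log2 change was -0.15 (standard error 0.24, 95% confidence interval -0.71 to 0.41, limma adjusted p = 0.999).

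miR-1904 had signals of 6.98%, 7.31% and 9.245% in control neurons, 18.7%, 23.4% and 26.5% after NMDA and 6.79%, 8.04% and 7.85% after bicuculline. The NMDA arrays were all above the others. NMDA against control gave a log2 change of 1.44 (limma adjusted p = 0.00031, standard error 0.14). 2 of its 3 control signals were at the floor. It too entered the test only through the NMDA arrays, so the p-value is no support of the direction. The change was 0.79 with normexp and 0.37 in the deposited log2 table. The call was lost with the total gene signal (limma adjusted p = 0.258) and without the filter (limma adjusted p = 0.0613), over a range from 2.14e-08 to 0.258 under all alternatives.

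miR-1897-5p, cut from the 5′ arm of its hairpin, varied more within groups. Its signal was 4.74%, 6.61% and 11.3% in control neurons, 15.6%, 20.1% and 24.4% after NMDA and 5.53%, 6.93% and 9.73% after bicuculline. The groups did not overlap for NMDA against control, with the highest control array at 11.3% and the lowest NMDA array at 15.6%. NMDA raised it by 1.14 on the log2 scale (limma adjusted p = 0.00664, standard error 0.20), with 2 control signals at the floor. This p-value is no support of the direction either, because only the NMDA arrays let miR-1897-5p into the test. The change was 0.66 with normexp and 0.38 in the deposited log2 table. The call was lost in that table, with quantile normalization, with the total gene signal, without the filter and with the methods' own test, over a range of the adjusted p (limma or that test) from 1.52e-06 to 0.697 under all alternatives. The opposite arm, miR-1897-3p, was well above background on 0 arrays, with -0.036% to 0.724% in control neurons and 1.93% to 4.15% after NMDA. Both arms thus had higher signals on all NMDA arrays than on any control array.

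miR-1892 had the smallest of the called changes. Its signal was 5.92%, 6.29% and 7.34% in control neurons, 12.4%, 13.3% and 13.3% after NMDA and 5.50%, 5.12% and 5.79% after bicuculline. The NMDA arrays were close together and above all others. NMDA raised it by 0.71 on the log2 scale (limma adjusted p = 0.000373, standard error 0.07), again against control signals that were all at the floor, and 1.00 with a floor at 0.5 of it. Control arrays add no spread at the floor, and miR-1892 entered the test only through the NMDA arrays. Its p-value is thus no support of the direction. Scaling to all probes gave 0.46 without a call (limma adjusted p = 0.0903), the deposited log2 table gave 0.18 (limma adjusted p = 0.0762) and the total gene signal 0.06 (limma adjusted p = 0.991), over a range from 3.54e-05 to 0.991 under all alternatives. This member and miR-1902, which was at background, were the ones with all bicuculline arrays below all control arrays.

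miR-1894-3p was too dim for the test. Its signal was 1.19%, 1.03% and 2.14% in control neurons, 7.225%, 11.01% and 12.3% after NMDA and 0.135%, 0.910% and 1.12% after bicuculline. All NMDA arrays were above all others, and 2 of them were well above background. As a bound the NMDA level was at least 1.44-fold higher than in control neurons and at least 1.495-fold higher than after bicuculline. The opposite arm, miR-1894-5p, was at -0.883%, 4.17% and -1.19% in control neurons and between -2.78% and -0.187% after NMDA, without a measurable level in either group.

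miR-1224 was measured on every array, with no signal near the floor. It was at 223%, 262% and 358% in control neurons, 269%, 297% and 437% after NMDA and 199%, 289.9% and 355% after bicuculline. The 3 groups overlapped, and slide 2 gave the higher signals in each. NMDA against control gave 0.24 on the log2 scale (standard error 0.23, 95% confidence interval -0.28 to 0.77, limma adjusted p = 0.991). Same-numbered arrays of NMDA and control were taken as pairs by their correlations, given below, since no label states a pairing. NMDA over control was 1.204, 1.13 and 1.22 in the 3 pairs. The fit above left out this pairing. With the replicate block limma's adjusted p for this change was 0.0547, over a range from 0.0547 to 0.995 under all alternatives. For bicuculline against control the log2 change was -0.01 (standard error 0.24, 95% confidence interval -0.55 to 0.53, limma adjusted p = 0.999). For NMDA against bicuculline it was 0.26 (95% confidence interval -0.34 to 0.85, limma adjusted p = 0.990). With the slide as a block this last change became 0.47 and passed the test (limma adjusted p = 0.0366, over a range from 0.0366 to 0.999 under all alternatives). Within slide 1 it was 0.50 and within slide 2 it was 0.45, where 2 of 3 NMDA arrays but 1 of 3 bicuculline arrays lay on slide 1. With the slide block the changes against control were 0.24 for NMDA and -0.22 for bicuculline, and neither passed. Under scaling to all probes, which moved the median of all miRNAs by -0.43 for NMDA against control, the change of miR-1224 was -0.18 and thus above that median.

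**Figure D2:**
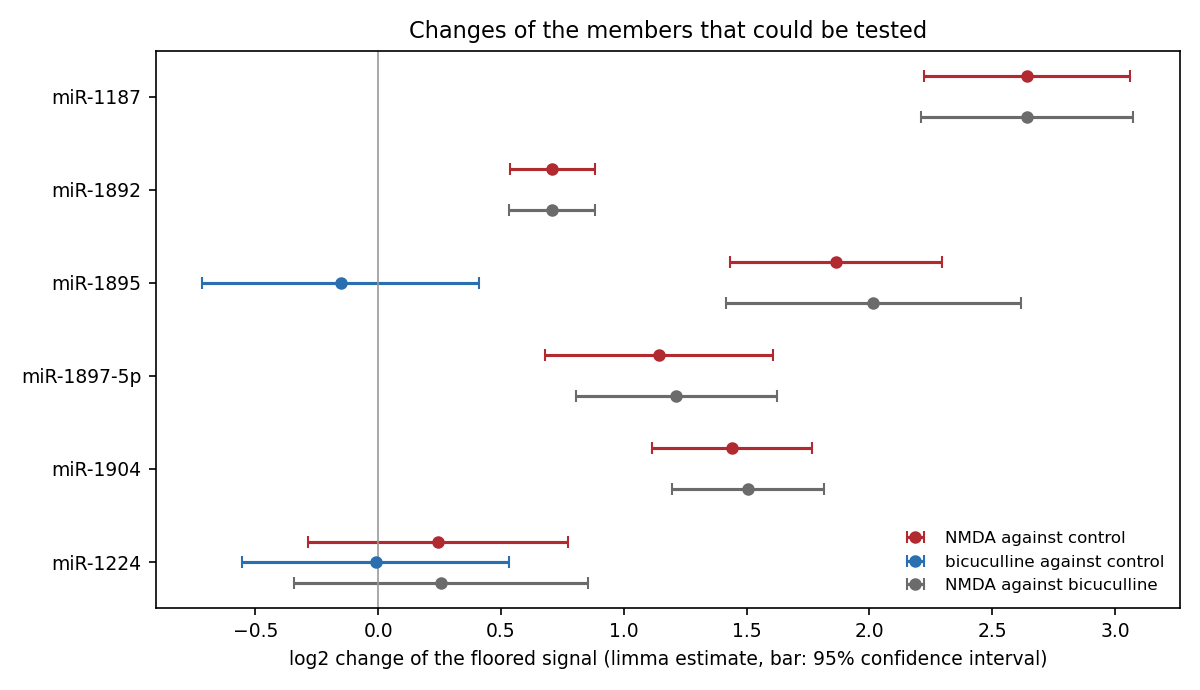
Log2 change of the floored signal for the 6 members that could be tested, as limma estimates (points) with 95% confidence intervals (bars), for NMDA against control (red), bicuculline against control (blue) and NMDA against bicuculline (grey). Against control, miR-1187 at 2.64 and miR-1895 at 1.86 lie farthest to the right for NMDA, while the intervals of miR-1224 and all bicuculline intervals contain 0.

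Over all miRNAs tested for NMDA against control, limma called 15 of 181 higher (8.29%) and 0 lower, with 3 lower at an unadjusted p under 0.05. A miRNA entered the test if it passed the background mark on every array of either group. Of the 32 members 6 were tested, and 5 of them were called higher. Of the 6, however, 4 passed this filter through the NMDA arrays alone and so had to be higher there, which leaves miR-1224 and miR-1895 as the members measured on both sides. The p-values of the 4 are no support of the direction. The median log2 change over the 6 was 1.29, and over all 181 it was -0.01. The 4 that had to be higher lift the first median, so the 2 medians are not a like comparison. Without the filter, which adds the members at background, the median over all 32 members was 0.00. Since arrays of whole cultures were compared, a change in the cells that hold a miRNA and a change in its amount per cell cannot be told apart.

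Bicuculline against control was tested on 161 miRNAs, of which limma called 1 higher (0.621%) and 0 lower. It called 0 of the 2 members tested, and 0 members had an unadjusted p under 0.05. The median log2 change was -0.08 over the 2 members and -0.02 over all 161. For NMDA against bicuculline limma called 15 of 181 higher (8.29%) and 1 lower (0.552%) after NMDA, and 5 of the 6 members tested were among the higher ones. The log2 changes were 2.64 for miR-1187, 2.02 for miR-1895, 1.51 for miR-1904, 1.21 for miR-1897-5p and 0.71 for miR-1892. Here too 4 of the 6 passed the filter through NMDA arrays alone. Both comparisons with NMDA use the same NMDA arrays and those with control the same control arrays.

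Signals without a floor can be read for all 32 members, although differences near background carry no fold. For 11 members all 3 NMDA arrays were above all 3 control arrays, while this held for 68 of all 650 miRNAs (10.5%). No member had all NMDA arrays below the control arrays, against 26 of 650 (4%). The 11 were miR-1186, miR-1187, miR-1196, miR-1892, miR-1894-3p, miR-1895, miR-1896, miR-1897-3p, miR-1897-5p, miR-1904 and miR-1906. Among the 26 members too dim to test it held for 6 (23.1%), and among all 469 miRNAs too dim to test for 51 (10.9%). For NMDA above bicuculline it was 10 members, all of the 11 but miR-1186, against 79 of 650 miRNAs (12.2%) and, among those too dim to test, 5 members against 59 of 469 (12.6%). For NMDA below bicuculline it was 0 members, against 12 of 650 (1.85%). For bicuculline above control it was 0 members, against 9 of 650 (1.38%), or 7 of the 489 too dim to test (1.43%), and for bicuculline below control it was 2, against 22 of 650 (3.38%).

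Of the dim members, miR-1906 was at -1.01% to 1.201% in control neurons, 3.33% to 7.305% after NMDA and -0.526% to 1.01% after bicuculline. miR-1896 was at 0.330% to 1.33%, 2.925% to 6.035% and -0.380% to 0.605% in the same order. miR-1196 was at -0.723% to 1.23%, 2.65% to 7.36% and -0.968% to 0.291%. These 3 rose above the background mark on 1 or 2 NMDA arrays, and their bounds stayed under 1, so no fold is given. miR-1186 stayed between -1.725% and 0.382% in control and NMDA arrays, although these did not overlap. Over the 22 members at background on every array the median difference was 0.001% of the scale for NMDA minus control, against 0.0621% over the 391 other miRNAs at background on every array, and -0.186% for bicuculline minus control.

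**Figure D3:**
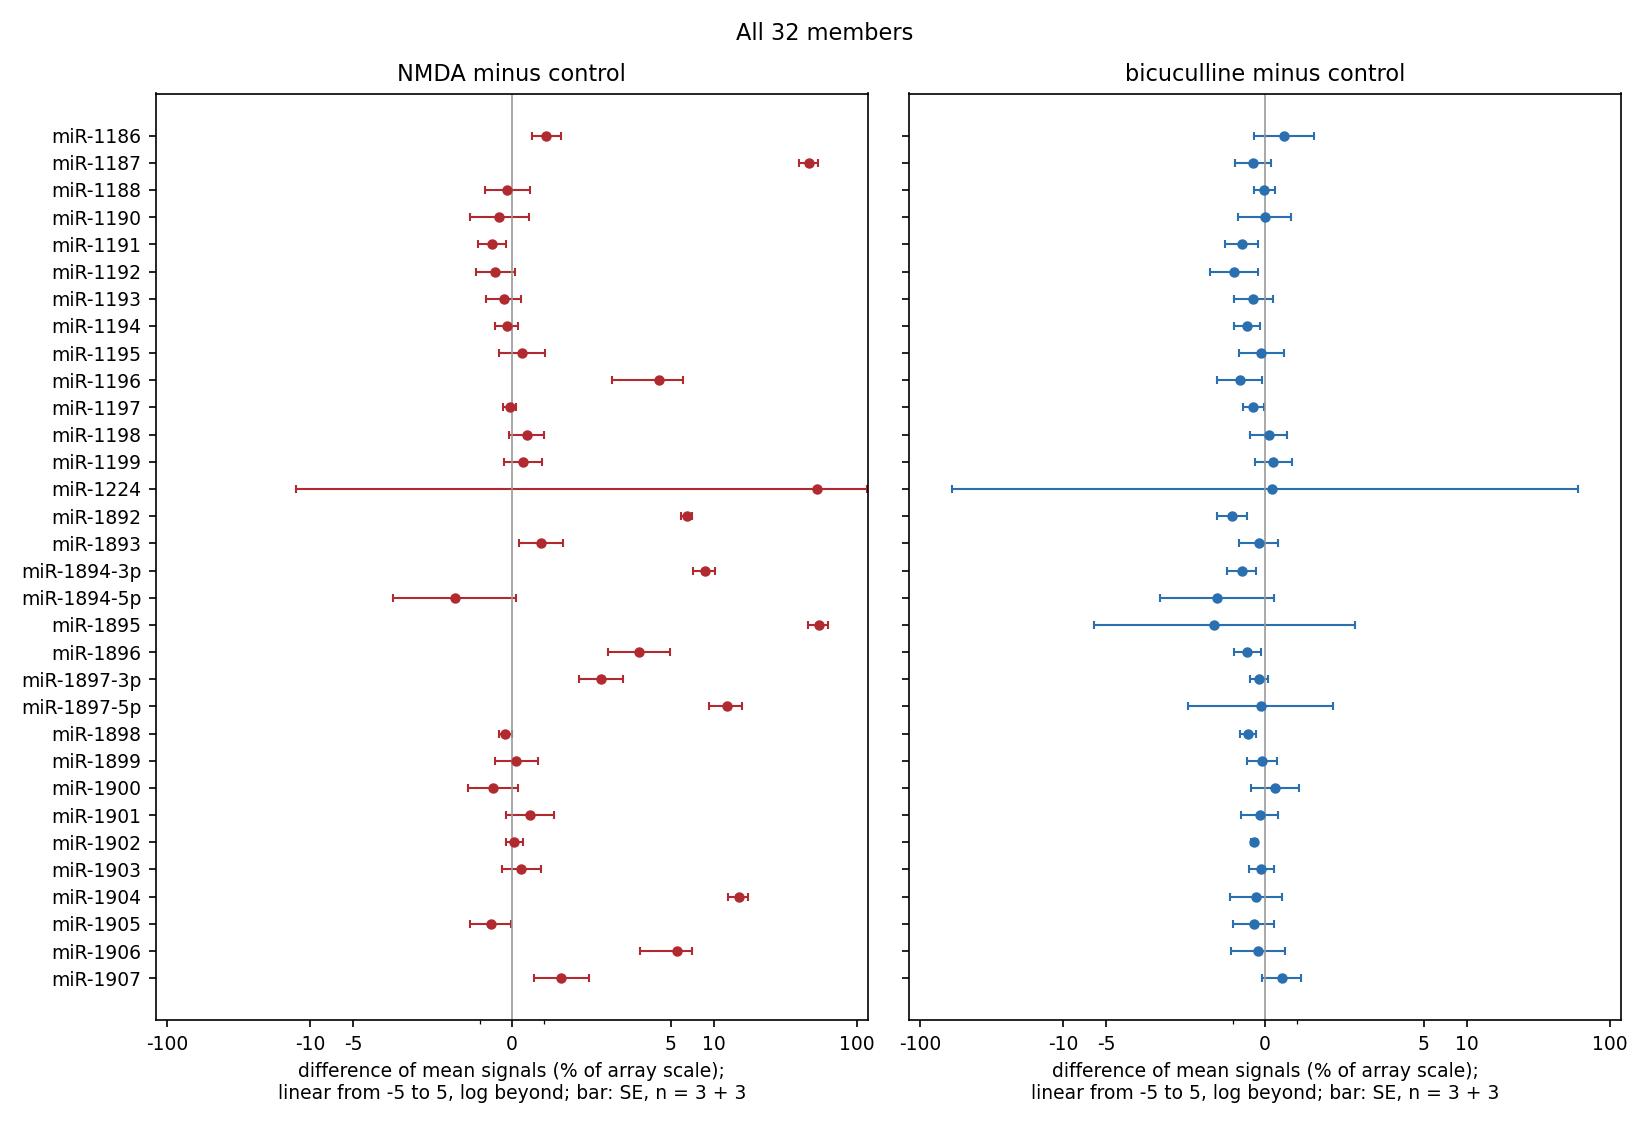
Difference of the mean signals from control for all 32 members, in percent of the array scale, for NMDA (left) and bicuculline (right). Points are differences of means over 3 and 3 arrays and bars are their standard errors, on an axis that is linear from -5 to 5 and logarithmic beyond. The NMDA differences of miR-1895, miR-1187 and miR-1904 are the largest with narrow bars, miR-1224 has wide bars, and most members lie near 0 on both sides.

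The second probe of each member gives another reading of the same RNA on the same arrays. For 10 of the 11 members named above the dimmer probe also had all NMDA arrays above all control arrays, and for 11 of 11 its mean was higher after NMDA. Of the other 21 members the dimmer probe did so for 1, miR-1907, and the mean was higher for 11. The dimmer probe of miR-1187 averaged 2.74% in control neurons and 33.2% after NMDA. That of miR-1895 averaged 12.9% and 49.2%, that of miR-1904 averaged 4.47% and 12.1%, and that of miR-1892 averaged 4.82% and 10.3%. Both probes of a member share their target, so they are not independent samples of the cultures. The 11 were also taken by the brighter probe on these same arrays. Second probes of miRNAs outside the set were not counted, so the agreement is not a trait particular to the members.

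The order of arrays within a group was partly shared by the 11 members. NMDA 1 was the lowest NMDA array for 11 of the 11, and control 3 was the highest control array for 9 of them. The highest NMDA array was NMDA 3 for 7 and NMDA 2 for 4. Of the 11, 9 were well above background on at least 1 array, with NMDA 1 lowest for 9 and control 3 highest for 8. The order was not counted over the other miRNAs, so whether it is particular to the members is not known. Within slides the log2 change for NMDA against control was 2.54 on slide 1 and 2.85 on slide 2 for miR-1187. It was 1.90 and 1.79 for miR-1895, 1.40 and 1.52 for miR-1904, 1.16 and 1.12 for miR-1897-5p and 0.69 and 0.75 for miR-1892. All of these but miR-1895 had control signals at the floor, which holds the log2 values of the slides together, and slide 2 had 1 array of each of these groups. Without a floor the differences on slides 1 and 2 were 43.5% and 52.4% of the scale for miR-1187 and 50.4% and 62.9% for miR-1895. They were 13.9% and 17.3% for miR-1904, 12.2% and 13.2% for miR-1897-5p and 6.72% and 5.97% for miR-1892. Between arrays of the same replicate number, NMDA over control was 3.48, 4.00 and 3.47 for miR-1895, which was measured on all of them.

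The sequences of the members with higher NMDA signals held more G than those of the others, a property looked at after the values were seen. Over the 8 of the 11 with 1 matching sequence, G made up 27.3% to 59.1% of the bases with a median of 43.2%, and over the 11 other matched members the median was 22.7%. The lowest shares among the 8 were 27.3% in miR-1897-3p and 34.8% in miR-1187, whose sequence above is 47.8% U. The 4 letters GAGG were not a planned property and were picked with the values known, so their counts are no test. Searched on the RNA strand only, they stood in 6 of the 8 (75%) and in 3 of the 11 (27.3%). They stood in 231 of all 1679 mature sequences of the table (13.8%). They can be read in the sequences of miR-1892, miR-1894-3p, miR-1895, miR-1896, miR-1904 and miR-1906, and also in miR-1224-5p. Among matched miRNAs outside the set the 23 with NMDA arrays above control arrays had a median of 36.4% G and GAGG in 7 (30.4%), and the other 167 had 22.7% G and GAGG in 11 (6.59%). This is a description of letters, and whether base composition bears on the signals was not tested.

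**Figure D4:**
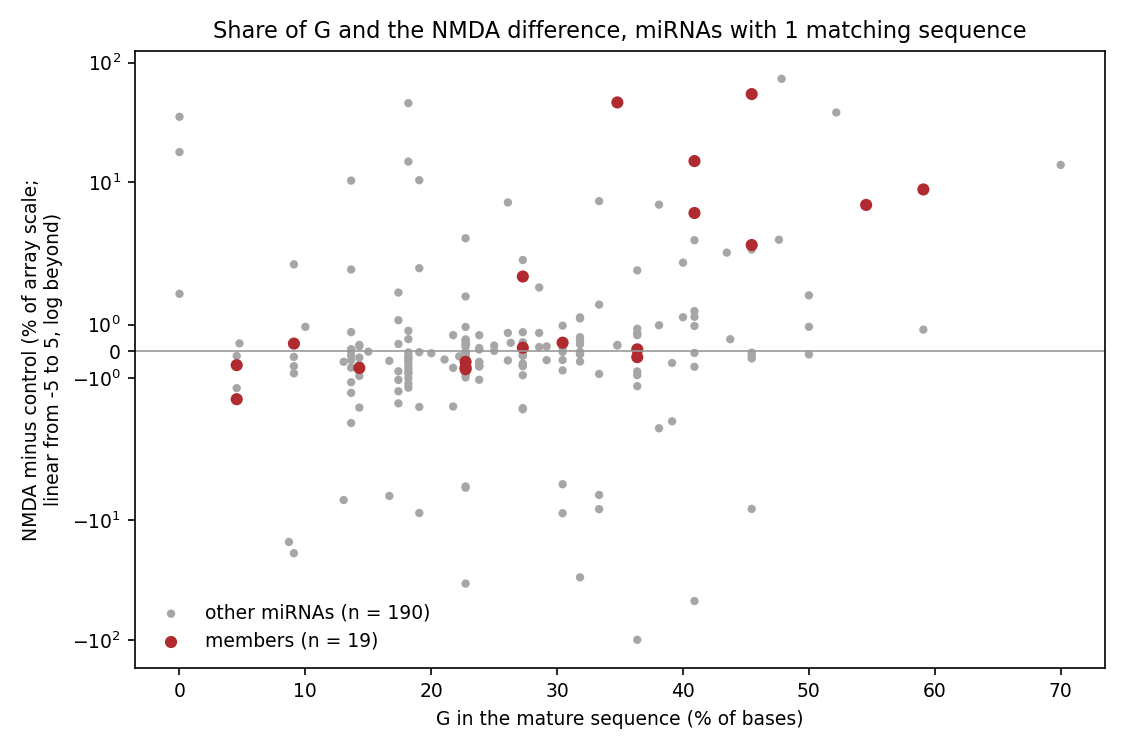
Share of G in the mature sequence (x axis, percent of bases) and NMDA minus control difference of the mean signal (y axis, percent of the array scale, linear from -5 to 5 and logarithmic beyond) for the miRNAs with 1 matching sequence. Red points are the 19 members and grey points the 190 other miRNAs. The members with 40% G or more all lie above 0, and other miRNAs with as much G lie on both sides.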

How the data were processed

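Total RNA of 9 samples was hybridized to Agilent mouse miRNA arrays (release 12.0). Per array, the authors deposited scanner output with spot intensity values from which Agilent Feature Extraction (10.7.1.1 on slide 1, 10.7.3.1 on slide 2) had subtracted the background, without normalization across arrays. The authors also deposited processed log2 values of every miRNA, whose normalization is not given in the sources used here. The array headers name mm9, so RefSeq tables (GRCm38.p6) served for names, neighbours and sequences only.

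From the scanner output, 3278 flagged outlier spots and control spots were left out, spots were averaged per probe, scaled, floored and put on the log2 scale as described above. Each comparison was fitted on its 3 and 3 arrays with limma 3.58.1 (R 4.3.3), and pairs entered only with the replicate block. Tests were two-sided, with Benjamini-Hochberg adjustment over all miRNAs tested and a threshold of 0.05. Precision is limited by the small number of arrays.

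The members and lists were chosen with earlier results of these data known. Values on every array are given for members measured on all arrays of a group, called in a comparison or named as markers of the set. Alternatives were other scalings, summaries, floors, filters, normexp (offset 50, on the median spot signal), the deposited table, the methods' t-test, blocks and leaving out each array.

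Pairing by replicate number was checked on 156 miRNAs, as the correlation of their differences to the group mean. For NMDA and control the same-numbered arrays correlated at 0.36, 0.76 and 0.63, so they were taken as pairs, although no label states a pairing. Each of these pairs also shared a slide. On slide 1, arrays of unlike number correlated at -0.10 (NMDA 1 with control 2) and 0.13 (NMDA 2 with control 1). For replicate 3, the only one of both groups on slide 2, number and slide cannot be told apart.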

Additional observations from a re-analysis of the deposited data

Results flagged for a closer look

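For 5 members limma called a difference between NMDA and bicuculline arrays when both treatments were set directly against each other. Of these, miR-1187, miR-1892, miR-1897-5p and miR-1904 entered the test through the NMDA arrays alone and so had to be higher there, and their p-values are no support of the direction. miR-1895 was measured on all arrays of both groups. The log2 change for NMDA minus bicuculline was 2.64 for miR-1187 (limma adjusted p = 7.73e-05), 2.02 for miR-1895 (limma adjusted p = 0.00152), 1.51 for miR-1904 (limma adjusted p = 0.000205), 1.21 for miR-1897-5p (limma adjusted p = 0.00265) and 0.71 for miR-1892 (limma adjusted p = 0.000555). For each, 3 of 3 NMDA arrays lay above all bicuculline arrays. All 3 bicuculline signals of miR-1187 and miR-1892 were at the floor, and for miR-1897-5p and miR-1904 it was 2 of 3. With each array left out in turn, the changes lay between 2.52 and 2.87, 1.78 and 2.26, 1.39 and 1.64, 1.06 and 1.38, and 0.69 and 0.74 in the same order, and limma called all 5 each time. The filter was kept from all arrays, so for the 4 that passed it through NMDA arrays alone this is no support of the direction either. Other settings lost calls. With the total gene signal limma called 1 of the 5, miR-1187. The call of miR-1895 was also lost without the filter (limma adjusted p = 0.171) and with the methods' t-test (adjusted p = 0.0514), over a range from 2.45e-20 to 0.178 under all alternatives. The call of miR-1897-5p was lost in the deposited log2 table, without the filter and with the methods' t-test, and that of miR-1892 with normexp. In the deposited table the changes were 1.10, 0.92, 0.35, 0.36 and 0.24 in the order above.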

How the results depend on the processing

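The cause of the differences below was not tested. For NMDA against control, limma called 5 members with each array left out in turn (5 to 5), with the median log2 change between 1.16 and 1.44. Over all 181 miRNAs it called 15 to 16 higher. The filter was not redone for these fits, here or for NMDA against bicuculline. In both comparisons 4 of the 6 members tested had passed it through the NMDA arrays alone, so for them the steady count is no support. In other settings limma called 1 member with the total gene signal, 3 in the deposited log2 table, 1 of the 2 members left among miRNAs on all 9 arrays and 2 without the filter. Over all miRNAs tested it called 5, 14, 3 and 5 higher in these settings, of 181, 181, 156 and 650. The median over the members was 0.99 with scaling to all probes, 1.67 with the total gene signal, 0.38 in the deposited table, 0.72 with normexp and 0.00 without the filter, which adds the members at background. For NMDA against bicuculline the count was 5 to 5 with each array left out (medians 1.23 to 1.51), 1 with the total gene signal, 1 on all 9 arrays, 3 without the filter and 3 with the methods' t-test. The median was 1.01 with scaling to all probes, 0.35 in the deposited table, 0.66 with normexp and 0.00 without the filter. For bicuculline the count was 0 throughout, with medians of -0.30 to 0.15 with each array left out.

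Small changes turned sign. miR-1224 went to -0.18 for NMDA against control and -0.22 for NMDA against bicuculline with scaling to all probes. For bicuculline against control it went to 0.045 with that scaling, 0.041 with scaling to the median, 0.12 with the total gene signal, 0.0033 in the deposited table, 0.18 without control replicate 3 and 0.22 without bicuculline replicate 1 (-0.20 to 0.22 over all arrays left out). There miR-1895 went to 0.0091 with the total gene signal, 0.0088 without control replicate 3 and 0.089 without bicuculline replicate 1 (-0.40 to 0.089). Members well above background on all 3 bicuculline arrays numbered 4 where 1 marked spot was enough. Over all miRNAs, calls for NMDA against control were 14 higher and 4 lower with scaling to all probes, 13 and 13 with quantile normalization and 5 and 0 with the total gene signal. For NMDA against bicuculline, scaling to all probes gave 16 higher and 127 lower, with the median of all miRNAs at -0.47, and quantile normalization gave 15 and 15.

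With the replicate block, limma called 5 members for NMDA against control, 5 for NMDA against bicuculline and 0 for bicuculline against control, and it changed no call of a member. Over all miRNAs tested limma then called 17, 16 and 2 higher in the same order, of 181, 181 and 161. For bicuculline the same-numbered arrays correlated at 0.59, 0.08 and 0.72 with control and at 0.62, -0.03 and 0.72 with NMDA, and the low value of each came from arrays on different slides, so these numbers were not taken as pairs.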
